A study of Mus musculus with 12 samples.

Results

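The 5 uroplakin genes Upk1a, Upk1b, Upk2, Upk3a and Upk3b were followed in the mouse prostate after ancestral exposure to chlordecone. They were taken by gene name from the count tables, which held 19091 genes for the F1 generation and 26023 genes for the F3 generation. All 5 were present in both tables. Chlordecone (kepone) is a persistent chlorinated insecticide. Pregnant females received 100 µg/kg/day between E6.5 and E15.5. Their sons (F1) and the males of the F3 generation bred from them gave the chlordecone groups, and control males of the same generations gave the F1 control and F3 control groups. The labels give neither strain nor age, nor whether a sample was 1 animal or a pool, so each p-value measures only the spread between these samples. Of 12 samples in 4 groups, 11 libraries were analysed: 2 F1 control, 3 F1 chlordecone, 3 F3 control and 3 F3 chlordecone. F1 control 3 was not analysed here.

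Uroplakins are membrane proteins of the umbrella cells, the surface layer of the urothelium that lines the bladder and much of the urethra, into which the prostatic ducts open. Upk1a and Upk1b are tetraspanins that pair with single-pass partners. Upk1a binds Upk2, and Upk1b binds Upk3a or its relative Upk3b. The pairs assemble into the plaques that stiffen the apical membrane. Outside the urothelium, Upk3b is a known marker of mesothelium, the lining of the body cavities.

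In GENCODE M21 (GRCm38) Upk1a (ENSMUSG00000006313) lies on chromosome 7 from 30603092 to 30612847, on the minus strand. Upk1b (ENSMUSG00000049436) lies on chromosome 16 from 38773184 to 38800328 and Upk2 (ENSMUSG00000041523) on chromosome 9 from 44452715 to 44454976, both on the minus strand. Upk3a (ENSMUSG00000022435) lies on chromosome 15 from 85017141 to 85022547 and Upk3b (ENSMUSG00000042985) on chromosome 5 from 136038496 to 136046487, both on the plus strand. None of the 5 overlapped another annotated gene on either strand.

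RefSeq (GRCm38.p6) promoter sequences were matched for 3 of the 5 genes, Upk1a, Upk3a and Upk3b. These are the 3 members with the largest fitted differences in F1, and their upstream 250 bases are shown so that the letters they share can be compared. Capitals mark matches on either strand to the GC box GGGCGG, the TATA box TATAAA, the GATA motif AGATAA, the nuclear receptor motif AGGTCA, the grainyhead motif AACCNGTT, the ETS motif AGGAAG and the motif of AP-1, TGACTCA, none of which overlap in these windows. The windows are chr7:30612735-30612984 (minus strand), chr15:85016891-85017140 (plus strand) and chr5:136038246-136038495 (plus strand), in this order. The Upk3a and Upk3b windows end just before their GENCODE starts. The Upk1a window is upstream of the RefSeq start only, as its part from 30612735 to 30612847 lies within the GENCODE gene span.
Upk1a: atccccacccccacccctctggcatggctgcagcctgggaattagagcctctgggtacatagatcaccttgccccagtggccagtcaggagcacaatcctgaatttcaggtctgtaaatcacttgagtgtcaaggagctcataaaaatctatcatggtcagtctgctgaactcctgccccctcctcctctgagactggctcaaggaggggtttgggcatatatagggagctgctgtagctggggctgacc
Upk3a: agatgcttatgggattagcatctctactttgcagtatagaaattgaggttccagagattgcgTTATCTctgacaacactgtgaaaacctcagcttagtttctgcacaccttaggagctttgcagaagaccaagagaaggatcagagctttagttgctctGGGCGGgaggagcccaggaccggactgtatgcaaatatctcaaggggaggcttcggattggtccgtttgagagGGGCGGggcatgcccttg
Upk3b: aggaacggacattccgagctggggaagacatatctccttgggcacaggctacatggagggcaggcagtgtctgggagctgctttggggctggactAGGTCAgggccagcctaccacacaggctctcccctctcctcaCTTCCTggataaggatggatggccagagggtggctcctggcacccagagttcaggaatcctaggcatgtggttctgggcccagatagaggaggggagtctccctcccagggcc
The Upk1a window held none of these letters. Upk3a held GGGCGG 2 times, from 91 to 86 and from 18 to 13 bases before the start, and AGATAA once in reverse, from 188 to 183. Upk3b held AGGTCA from 155 to 150 bases before the start and AGGAAG in reverse from 113 to 108. No motif occurred in more than 1 of the 3 windows. Among 32851 RefSeq promoter windows of this length, GGGCGG was present in 32.7%, AGGAAG in 29.5%, AGGTCA in 14%, TATAAA in 12.4%, AGATAA in 9.99%, TGACTCA in 4.46% and AACCNGTT in 1.79%. These are matches of letters and no measure of binding.

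Total counts were between 17228539 and 28061760 in the F1 libraries and between 71672418 and 114762135 in the F3 libraries. Levels are given in CPM, counts relative to the library size as scaled by TMM, and as CPM per kilobase of merged exons where genes are set side by side. The 7 prostate secretory markers summed to between 52192 and 101886 CPM in F1 and between 87588 and 105480 CPM in F3. The 7 seminal vesicle markers summed to between 118447 and 528811 CPM in F1 libraries and to between 9.91 and 70.2 CPM in F3 libraries. F1 chlordecone 1 and 3 stood apart in markers of vas deferens and epididymis, whose 7 measured genes summed to 44299 and 13938 CPM there and to between 36.2 and 110 CPM in the other F1 libraries. Nearly all of this was Akr1b7 (29064 and 8741 CPM) and Crisp1 (15224 and 5188 CPM), both abundant in vas deferens or epididymis, while Adam28 (-0.71) and Spag11b (-0.42) had negative F1 log2 fold changes. Krt20, the keratin of umbrella cells, was at 0.0469 to 5.11 CPM in F1 and 0.0166 to 0.0813 CPM in F3, so the marker that defines the surface layer was near 0 in F3 libraries. Uroplakin messages in F3 are therefore named by gene and not as urothelium. In such bulk samples fewer cells of a type and less RNA per cell cannot be told apart.

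Between the genes, Upk1b had the highest mean level per kilobase in all 4 groups. In F1 controls it stood at 9.92 ± 1.79 CPM per kilobase (SD, n = 2). Upk2 followed at 1.91 ± 0.377, Upk1a at 0.839 ± 0.534, Upk3a at 0.462 ± 0.228 and Upk3b at 0.0430 ± 0.0232 CPM per kilobase, the ranges of Upk1a and Upk3a overlapping. In F1 chlordecone libraries Upk1b at 8.44 ± 3.53, Upk3a at 7.24 ± 7.05, Upk1a at 6.74 ± 4.31, Upk2 at 5.65 ± 5.28 and Upk3b at 2.93 ± 3.34 CPM per kilobase (n = 3) had overlapping ranges. In F3 controls the order was Upk1b at 51.1 ± 3.47, Upk3b at 8.09 ± 5.98, Upk2 at 2.22 ± 0.508, Upk1a at 2.11 ± 0.476 and Upk3a at 0.0749 ± 0.0163 CPM per kilobase (n = 3). The ranges of Upk3b, Upk2 and Upk1a overlapped there. In F3 chlordecone libraries Upk1b at 78.9 ± 7.30 was followed by Upk1a at 11.7 ± 2.20, Upk3b at 5.42 ± 1.42, Upk2 at 2.75 ± 0.807 and Upk3a at 0.0400 ± 0.0137 CPM per kilobase (n = 3). The tables were made separately, so levels across generations are descriptions only.

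**Figure D1:**
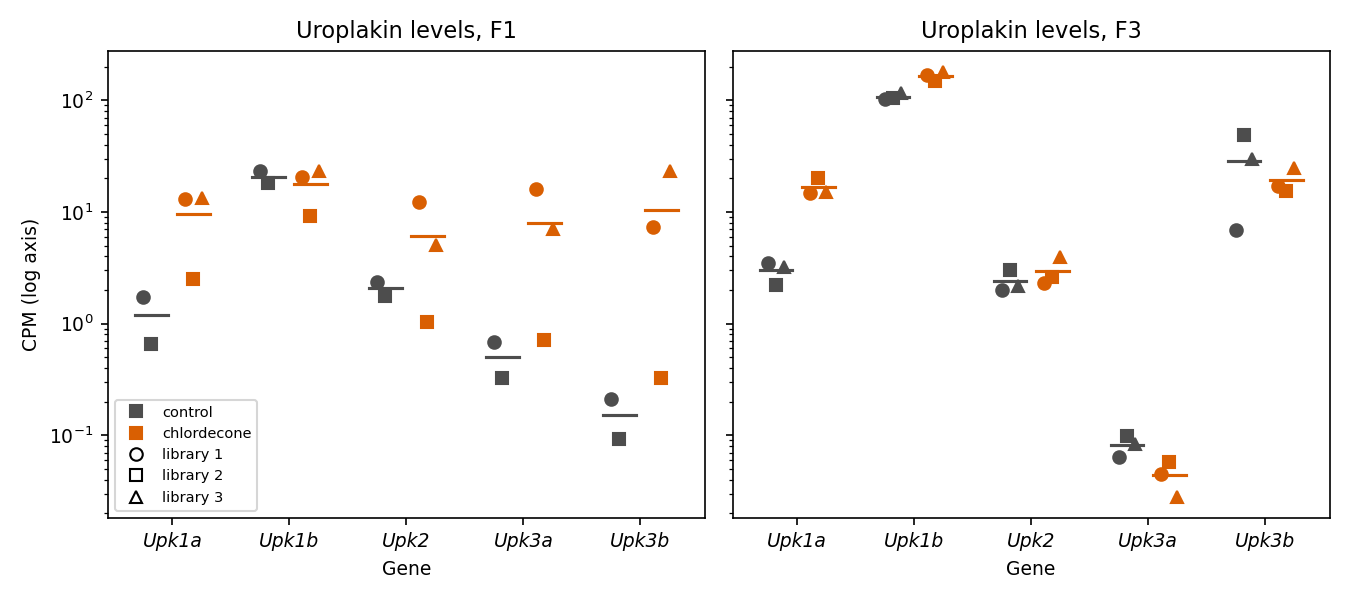
CPM of each uroplakin (log axis) in every library of F1 (left) and F3 (right); grey points are control and orange points chlordecone libraries, the marker shape gives the library number and bars are group means. Upk1a lay higher in all chlordecone libraries of both generations, while F1 chlordecone 2 lay near the controls for Upk3a and Upk3b.

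The tetraspanin Upk1a was higher in chlordecone than in control libraries of both generations, and in F3 the difference passed the test. In F3 it was at 3.52, 2.23 and 3.24 CPM in control 1, 2 and 3, against 14.6, 20.2 and 14.95 CPM in chlordecone 1, 2 and 3. All 3 chlordecone libraries lay above all 3 controls. Upk1a rose 5.53-fold on the group means, from 3.00 ± 0.676 to 16.6 ± 3.12 CPM (SD, n = 3 each), a log2 fold change of 2.46 (SE 0.23, adjusted p = 0.0102, edgeR's quasi-likelihood test with Benjamini-Hochberg adjustment over 16766 genes). Of the 4 uroplakins tested in F3 it was the 1 that passed this test, and 0.0239% of all genes tested passed it in this direction. Its adjusted p was 0.0605 without control 3 and 0.301 in a single fit of both generations, where 2 genes passed in all for F3. In the authors' deposited table its F3 adjusted p was 2.63e-22.

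In F1, Upk1a was at 1.73 and 0.656 CPM in control 1 and 2, against 13.0, 2.51 and 13.2 CPM in chlordecone 1, 2 and 3. The groups did not overlap, and chlordecone 2 lay nearest to the controls. The log2 fold change was 3.01 (SE 0.85), and edgeR's adjusted p of 0.250 over 17804 genes missed the threshold. The fold of the group means was 8.03, and it was 14.6 without control 1 and 5.54 without control 2. The difference between the generations in this change was -0.47 (SE 0.77, adjusted p = 0.799, edgeR interaction test over 16980 genes), and 0.11 without F1 control 2.

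No gene near Upk1a passed the F3 test. Within 100 kb of it, 13 other genes were tested and 0 passed in edgeR or in DESeq2, with log2 fold changes between -0.80 and 1.05. The nearest tested neighbours were Zbtb32, a zinc finger repressor 4183 bases away (log2 fold change -0.16, SE 0.35, adjusted p = 0.876 in edgeR), and Cox6b1, a subunit of cytochrome oxidase 4014 bases away on the other side (-0.36, SE 0.13, adjusted p = 0.435 in edgeR). At an unadjusted p under 0.05 in edgeR there were 3, the splicing factor gene U2af1l4 and Cox6b1 lower and the ETS factor gene Etv2 higher, and U2af1l4 and Etv2 are named because the count is small. Of all genes, 5.64% were lower and 4.97% higher at that level.

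The other tetraspanin, Upk1b, was at 102, 104 and 115 CPM in F3 control 1, 2 and 3, against 167, 149 and 179 CPM in F3 chlordecone 1, 2 and 3. The groups did not overlap, as in 8.34% of all genes tested in this direction. The means of 107 ± 7.26 and 165 ± 15.2 CPM stood 1.54-fold apart, and the log2 fold change was 0.63 (SE 0.12, unadjusted p = 0.000724, adjusted p = 0.253 in edgeR). Both Upk1a and Upk1b, 2 of the 4 tested, had an unadjusted p under 0.05 in edgeR as higher, against 4.97% of all genes. DESeq2's Wald test passed these 2 of 5, against 0.575% of all genes as higher (Upk1b adjusted p = 0.00894), as did the authors' deposited table (adjusted p = 0.0131). In F1, Upk1b was at 23.4 and 18.1 CPM in the controls, against 20.4, 9.27 and 23.2 CPM in chlordecone 1, 2 and 3. The groups overlapped, with a log2 fold change of -0.23 (SE 0.40, adjusted p = 0.877 in edgeR) that was 0.067 without chlordecone 2.

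Upk2, the partner of Upk1a, did not pass the test in either generation. In F3 it was at 1.99, 3.03 and 2.19 CPM in the controls, against 2.33, 2.64 and 3.97 CPM in the chlordecone libraries. The groups overlapped (log2 fold change 0.31, SE 0.28, adjusted p = 0.679 in edgeR). Per kilobase, Upk1a stood at 1.35, 0.563 and 1.13 times the Upk2 level in F3 control 1, 2 and 3 and at 4.80, 5.84 and 2.87 times in chlordecone 1, 2 and 3. In F1, Upk2 was at 2.36 and 1.78 CPM in the controls, against 12.3, 1.04 and 5.02 CPM in chlordecone 1, 2 and 3, so chlordecone 2 lay below both controls and the other 2 above them. Its F1 log2 fold change was 1.57 (SE 0.93, adjusted p = 0.581 in edgeR), and 0.54 without chlordecone 1.

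Upk3a, a partner of Upk1b, was nearly at 0 in F3 libraries and reached its highest levels in F1 chlordecone libraries. In F1 it was at 0.681 and 0.328 CPM in the controls, against 16.0, 0.709 and 7.0 CPM in chlordecone 1, 2 and 3. Chlordecone 2 lay just above control 1, with 13 reads in each, and the other 2 chlordecone libraries lay far above both controls. The log2 fold change was 3.97 (SE 1.23, unadjusted p = 0.0123, adjusted p = 0.297 in edgeR). The fold of the group means was 15.7, and it was 7.64 without chlordecone 1 and 24.1 without control 1. In F3 every library held between 3 and 10 reads of Upk3a, or 0.0635, 0.0990 and 0.0830 CPM in the 3 controls, against 0.0449, 0.0581 and 0.0283 CPM in the chlordecone libraries. The 3 controls lay above the 3 chlordecone libraries, but these counts did not pass the filter on low counts and the difference was not detectable at this depth (log2 fold change -0.90, adjusted p = 0.822 in DESeq2, without that filter).

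Within F1, Upk3b had the widest range of the family, at 0.210 and 0.0937 CPM in the controls (4 and 2 reads), against 7.36, 0.327 and 23.3 CPM in chlordecone 1, 2 and 3 (186, 6 and 507 reads). Chlordecone 1 and 3 lay far above the controls and chlordecone 2 just above them. With the reads of each group pooled, the level was 72.1 times higher, with an exact 95% interval of 33.0 to 197 that covers counting error only. The fold of the group means was 68.2, and it was 25.4 without chlordecone 3, which held 507 of the 699 chlordecone reads, and 110 without control 1. The fitted log2 fold change of 6.06 (SE 1.69, unadjusted p = 0.00711, adjusted p = 0.248 in edgeR) missed the threshold.

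In F1 as a whole, 0 of the 5 uroplakins passed edgeR's threshold, against 0.0112% of all genes that passed it as higher, and 3 of 5 had an unadjusted p under 0.05 as higher, against 7.93% of all genes. DESeq2's Wald test passed 3 of 5, Upk1a, Upk3a and Upk3b, against 2.83% of all genes as higher. These 3 also passed in the authors' deposited table, with adjusted p of 0.00829, 0.00664 and 0.000141. Upk3b reached the F1 filter level of 0.534 CPM by total count only in chlordecone 1 and 3. Its place among the tested genes therefore already requires a difference. Upk3a reached that level in control 1 and in all 3 chlordecone libraries, and not in control 2. Without F1 chlordecone 2, edgeR passed 4 of 5 (Upk1a, Upk2, Upk3a and Upk3b), and 2604 genes in all. The groups did not overlap for Upk1a, Upk3a and Upk3b, as in 16.2% of all genes in this direction. Scaled by total count alone, Upk3a overlapped, with 0.755 CPM in control 1 and 0.728 CPM in chlordecone 2, and Upk1b did not, all 3 chlordecone libraries lying below both controls.

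**Figure D2:**
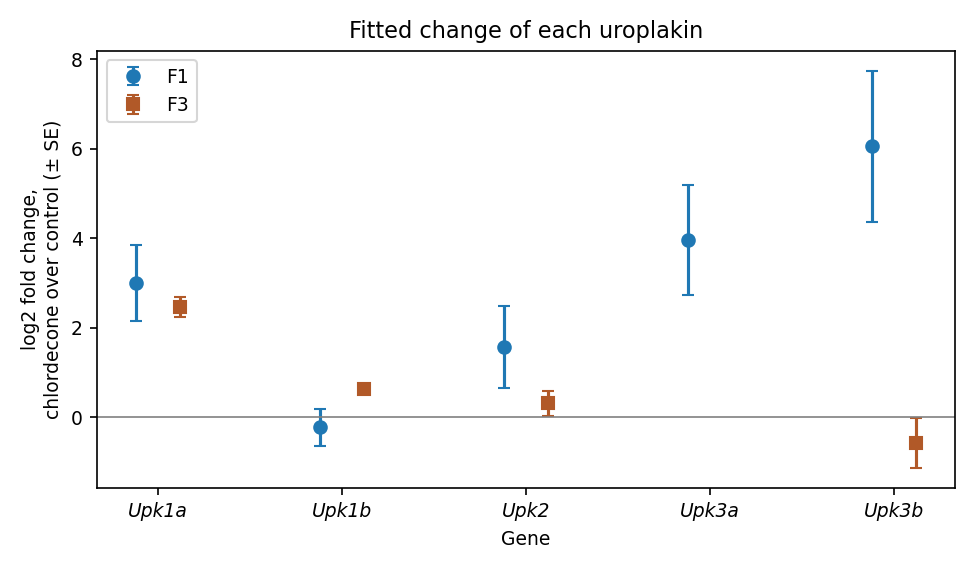
Fitted log2 fold change of each uroplakin, chlordecone over control, with its SE, in F1 (circles) and F3 (squares); Upk3a has no F3 value because its counts did not pass the filter. Upk1a is at 3.01 in F1 and 2.46 in F3, while Upk3b is at 6.06 in F1 and -0.58 in F3.

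In F3, Upk3b was at 6.94, 49.1 and 29.7 CPM in control 1, 2 and 3, against 17.1, 15.4 and 24.8 CPM in chlordecone 1, 2 and 3. The chlordecone libraries lay within the range of the controls (log2 fold change -0.58, SE 0.56, adjusted p = 0.703 in edgeR), and without control 2 the log2 fold change was 0.052. The F3 change minus the F1 change was -6.59 (SE 1.78, adjusted p = 0.0931) for Upk3b and -4.76 (SE 1.33, adjusted p = 0.101) for Upk3a in edgeR's interaction test. It was 0.93 (SE 0.39, adjusted p = 0.240) for Upk1b and -1.17 (SE 0.92, adjusted p = 0.562) for Upk2. With edgeR 0 of 5 passed, against 0.718% of all genes in either direction, and 3 had an unadjusted p under 0.05, against 16.9%. DESeq2 passed 2 of 5, Upk3a and Upk3b, against 6.9% of all genes. In this fit both F1 controls, at 0.759 and 0.376 CPM by total count, also reached edgeR's filter level of 0.145 CPM for Upk3a, and no F3 library did. These 2 also passed in edgeR without F1 chlordecone 2, with an adjusted p of 0.00252 for Upk3a and 0.00493 for Upk3b. Leaving out this library also raised the number of all genes that passed in the F1 fit from 5 to 2604.

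The make-up of the uroplakin message differed most from the controls in F1 chlordecone 1 and 3. Upk1b made up 73.3% and 78.1% of the summed level per kilobase in the F1 controls, against 20.7%, 56.2% and 29.2% in chlordecone 1, 2 and 3. Upk3a made up 31.2%, 8.21% and 16.8% there, against 4.08% and 2.71% in the controls. In F3, Upk1b held between 73.0% and 88.5% in all 6 libraries and Upk3a at most 0.133%. Upk1a held 4.50%, 2.31% and 3.36% in F3 controls and 10.6%, 15.4% and 9.84% in F3 chlordecone libraries.

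**Figure D3:**
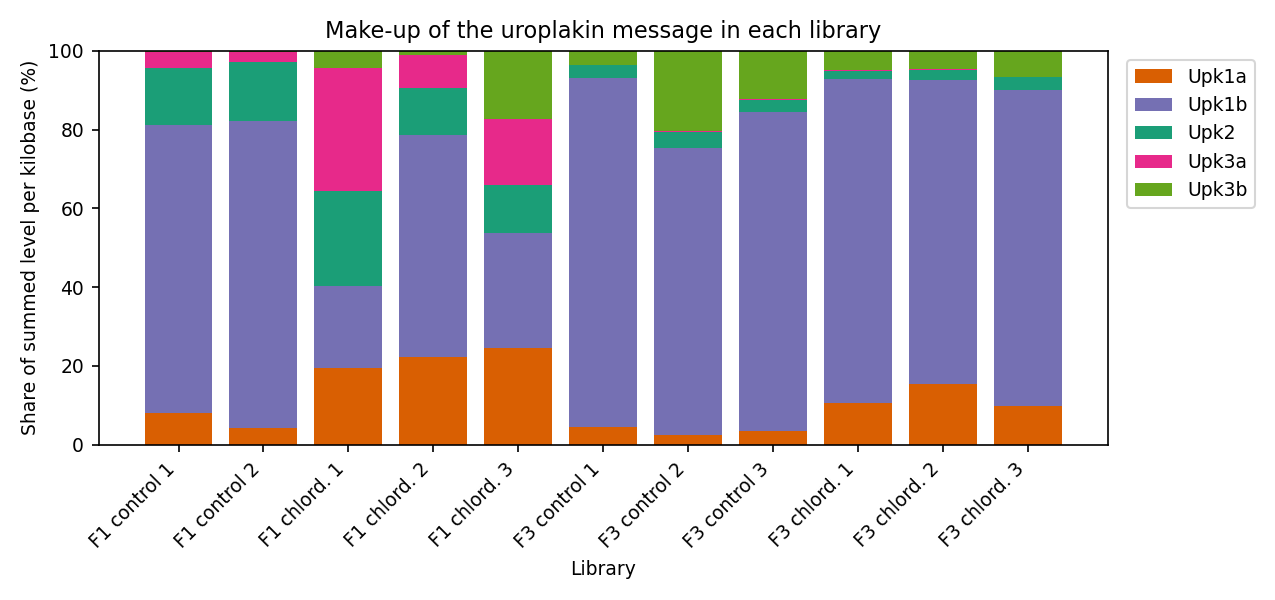
Stacked bars give the share (%) of each uroplakin in the summed level per kilobase of the 5 genes, for each of the 11 libraries. F1 chlordecone 1 and 3 have the smallest Upk1b share (20.7% and 29.2%), and Upk1b fills at least 73.0% of every F3 bar.

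Other urothelial surface genes were set beside the uroplakins. Of 12 such genes, 10 were higher and 2 lower in F1 by the fitted fold change, 0 passed edgeR's threshold, 6 had an unadjusted p under 0.05 as higher, against 7.93% of all genes, and the median log2 fold change was 2.09, against 0.02 over all genes. DESeq2 passed 4 of them, Krt7, Psca, Ly6d and Sprr1a, against 2.83% of all genes as higher. By level, the leading genes were the tight junction gene Cldn4, with an F1 log2 fold change of 0.02, the sodium pump regulator Fxyd3, at 0.41, and the surface antigen gene Ly6d, at 3.58 (edgeR, adjusted p of 0.991, 0.752 and 0.295). Psca, an anchored surface antigen, was at 0.314 and 0.422 CPM in F1 controls, against 34.6, 5.34 and 15.7 CPM in F1 chlordecone 1, 2 and 3. Krt20 was at 0.314 and 0.0469 CPM and at 5.11, 0.709 and 1.75 CPM in the same libraries. Psca and Krt20, both among the 6, lay below the F1 filter level of 0.534 CPM in both F1 controls. Their place among the tested genes therefore already requires a difference. In F3, 7 of the 12 were tested, with 3 higher and 4 lower and a median of -0.16, against -0.01 over all genes. At edgeR's threshold 0 passed, and 1 had an unadjusted p under 0.05 as higher, against 4.97% of all genes. DESeq2 passed 1, Sprr1a, against 0.575% of all genes as higher. Sprr1a, a cornified envelope precursor, was at 0.211, 0.693 and 0.332 CPM in F3 controls, against 3.67, 2.63 and 2.86 CPM in F3 chlordecone libraries. The groups did not overlap, as in 8.34% of all genes tested in this direction (log2 fold change 2.91, adjusted p = 0.105 in edgeR). Psca, Krt20, Sprr1a and Upk3bl are named here with their values already known. Upk3bl, a gene related to Upk3b and 8005 bases away from it, was at 0.184 to 1.62 CPM in F1 and at 0 reads in 5 of 6 F3 libraries.

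Of 10 measured genes that carry uroplakin vesicles to the apical membrane, 0 passed edgeR's threshold and 0 passed DESeq2's in either generation. By edgeR's unadjusted p under 0.05, 0 stood out in F1, and 1 higher and 2 lower stood out in F3, where 4.97% and 5.64% of all genes did. The medians of the log2 fold changes were 0.14 in F1 and -0.08 in F3. By mean CPM over the 11 libraries the leading genes were the vesicle fusion gene Vamp8 (-0.47, SE 0.14, adjusted p = 0.397 in edgeR, F3), Rab11a, a recycling endosome GTPase (-0.08, SE 0.13, adjusted p = 0.84 in edgeR, F3), and the syntaxin-binding gene Stxbp2 (-0.10, SE 0.12, adjusted p = 0.742 in edgeR, F3). The raft protein gene Mal, named with its values known, was also fitted lower (-0.38, SE 0.11, adjusted p = 0.385 in edgeR, F3). Rab27b, a GTPase of uroplakin vesicles named here with its values known, was fitted higher in F3 (0.37, SE 0.12, adjusted p = 0.414 in edgeR). It was at 45.1, 49.7 and 55.3 CPM in F3 controls, against 69.3, 61.9 and 63.2 CPM in the F3 chlordecone libraries 1, 2 and 3.

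Of 12 regulators of urothelial differentiation, 0 passed edgeR's threshold in either generation. In F1 1 was higher and 3 were lower at an unadjusted p under 0.05 (7.93% and 3.6% of all genes), the median was 0.19, and DESeq2 passed Gata3 as lower (0.871% of all genes). Gata3, a transcription factor of luminal epithelia, was at 3163 and 3212 CPM in F1 controls, against 1276, 1705 and 1629 CPM in the F1 chlordecone libraries 1, 2 and 3 (-1.05, SE 0.33, adjusted p = 0.297 in edgeR). The epithelial ETS factor gene Ehf (-0.62, SE 0.26, adjusted p = 0.41 in edgeR) and the pioneer factor gene Foxa1 (-0.73, SE 0.25, adjusted p = 0.326 in edgeR) were also fitted lower in F1. So was Grhl3 (-2.96, SE 1.51, adjusted p = 0.511 in edgeR). Rxra (0.63), Rarg (1.09) and Trp63 (0.89) were fitted higher, with edgeR's adjusted p of 0.525, 0.423 and 0.466. Grhl3, Rxra, Rarg and Trp63 are named with their values known. By the fitted F1 fold change 6 of the 12 were higher and 6 lower. In F3 11 were tested, 1 was higher at an unadjusted p under 0.05 in edgeR (4.97% of all genes) and the median was 0.16.

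Among 26 tested tetraspanins other than Upk1a and Upk1b, 0 passed edgeR's threshold in either generation. In F1 6 were higher and 2 lower at an unadjusted p under 0.05 (7.93% and 3.6% of all genes), with a median log2 fold change of 0.40. In F3 2 were higher at that level (4.97% of all genes) and the median was -0.09, where Upk1a stood at 2.46 and Upk1b at 0.63. DESeq2 passed Tspan8 and Tspan32 in F1 (2.83% of all genes as higher) and Tspan18 in F3 (0.575%), all higher. Tspan32 was at 0 CPM in both F1 controls, against 0.436, 0.654 and 1.89 CPM in F1 chlordecone 1, 2 and 3. Its place among the tested genes therefore already requires a difference, and it is also among the 6 higher in edgeR. Tspan8, a tetraspanin of secretory epithelia, was at 11.7 and 12.6 CPM in F1 controls, against 52.1, 42.7 and 135 CPM in the F1 chlordecone libraries 1, 2 and 3. Tspan18 was at 7.92, 11.1 and 13.4 CPM in F3 controls, against 23.2, 33.0 and 18.4 CPM in the F3 chlordecone libraries 1, 2 and 3 (1.20, SE 0.26, adjusted p = 0.3 in edgeR). By mean CPM over the 11 libraries the leading ones were Tspan1, Tspan13 and Cd63, with F3 log2 fold changes of -0.14, -0.05 and -0.33 and none past the threshold.

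The 11 libraries were also searched for genes whose log2 level ran most like that of the uroplakins. The measure was the root mean square difference from the mean of Upk1a, Upk1b, Upk2 and Upk3b, centred within each generation, over 11160 genes with a median difference of 0.832. Upk3a was left out because it did not pass the F3 filter. The mean joins members that do not run alike: by likeness to Upk1b alone, the other 4 uroplakins ranked between 9085 and 11124 of 11164 genes. The single genes nearest to each member, named with their values known, were Tyro3 for Upk1a, Cat for Upk1b, Pold4 for Upk2, Tmem132a for Upk3a and Msln for Upk3b, none of them among the 8 nearest to the mean. The nearest 8 were Aldh1a1 at 0.227, Calcrl at 0.274, Bag2 at 0.285, Sost at 0.289, Pappa2 at 0.327, Tagln2 at 0.327, Slc31a2 at 0.335 and Dpep1 at 0.346. Aldh1a1, a retinaldehyde dehydrogenase, was at 22.7 and 15.2 CPM in F1 controls, against 93.8, 16.5 and 76.7 CPM in the F1 chlordecone libraries 1, 2 and 3. In the other generation Aldh1a1 was at 56.3, 70.3 and 60.4 CPM in F3 controls, against 66.7, 84.9 and 81.7 CPM in the F3 chlordecone libraries 1, 2 and 3. F1 chlordecone 1 and 3 stood above the other F1 libraries, as for Upk1a, Upk2, Upk3a and Upk3b. Of the others, Calcrl encodes the receptor of adrenomedullin and its relatives, Bag2 a co-chaperone, Sost a secreted Wnt antagonist, Pappa2 a protease of IGF-binding proteins, Tagln2 an actin-binding protein, Slc31a2 a copper transporter and Dpep1 a dipeptidase.

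Upk3b ran most like Msln, which encodes mesothelin, a surface protein of mesothelium. Among 11164 genes ranked by this measure Msln was the nearest to Upk3b (0.475). Gpm6a, a membrane glycoprotein gene also on the mesothelium list, ranked 56, Wt1 ranked 6544 and Aldh1a2 ranked 10610. Msln was at 1.83, 11.3 and 4.66 CPM in F3 controls, against 4.44, 3.66 and 6.60 CPM in the F3 chlordecone libraries 1, 2 and 3. Control 2 was highest and control 1 lowest, as for Upk3b. This order held for 9 of the 10 mesothelium genes, all but Aldh1a2, and for 5.77% of all genes tested. The order was looked at because of the Upk3b values and is a description. The 7 smooth muscle markers summed to 1255, 4215 and 3549 CPM in F3 control 1, 2 and 3, the same high and low library, and their part in the Upk3b values was not tested. In the other generation Msln was at 0 and 0.0937 CPM in F1 controls, against 2.22, 0 and 6.90 CPM in the F1 chlordecone libraries 1, 2 and 3, again highest in chlordecone 3. Of the 9 mesothelium genes tested in F1, 6 were fitted higher and 3 lower (Wt1 at -0.19, Lrrn4 at -0.40 and Aldh1a2 at -0.995). Msln, among the 6, lay below the F1 filter level in both F1 controls, so its place among the tested genes already requires a difference. The list summed to 20.1 and 19.6 CPM in F1 controls, against 22.1, 18.4 and 40.2 CPM in chlordecone 1, 2 and 3.

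Several marker lists of other tissues or cell types also differed in F1, not all in 1 direction. The 7 markers of proximal duct and urethral luminal cells summed to 10.7 and 9.93 CPM in F1 control 1 and 2 and to 440, 119 and 952 CPM in chlordecone 1, 2 and 3. All 7 had a higher fitted level, 0 passed edgeR's threshold, 7 had an unadjusted p under 0.05 (7.93% of all genes as higher) and DESeq2 passed 7 (2.83% of all genes as higher). Psca, Ly6d and Krt7 are also among the 12 urothelial surface genes, so these lists are not separate evidence. Psca lay below the F1 filter level in both F1 controls, so its place among the tested genes already requires a difference. Clu, the most abundant of them, was at 4.03 and 4.22 CPM in F1 controls, against 304, 94.5 and 872 CPM in the F1 chlordecone libraries 1, 2 and 3 (6.68, SE 1.03, adjusted p = 0.111 in edgeR). Chlordecone 1 and 3, the libraries with the highest vas deferens and epididymis sums, were also highest in Upk1a, Upk2, Upk3a and Upk3b. The seminal vesicle sums were 118447 and 121062 CPM in F1 controls and 187024, 430207 and 528811 CPM in chlordecone 1, 2 and 3, with 5 of the 7 genes fitted higher and 2 lower. In chlordecone 3, Svs1 was at 0.783 CPM against 275 and 239 CPM in the controls and Svs6 at 93.0 CPM against 5137 and 5366 CPM. Prostate secretory genes were fitted lower in 6 of 6 tested, with a median of -0.60, 3 at an unadjusted p under 0.05 (3.6% of all genes as lower), 0 past edgeR's threshold and 1, Hoxb13, past DESeq2's (0.871% as lower). All 6 basal genes were fitted higher, Dst by a log2 fold change of 0.007. At an unadjusted p under 0.05 there were 2 (7.93% of all genes as higher), and 0 passed edgeR's threshold. DESeq2 passed 2, Krt5 and Krt14 (2.83% as higher). The basal sums overlapped, at 208 and 200 CPM in F1 control 1 and 2, against 218, 317 and 196 CPM in chlordecone 1, 2 and 3. Smooth muscle sums lay between 3964 and 4036 CPM in controls and were 11748, 4636 and 7398 CPM in chlordecone 1, 2 and 3. In the same order, adipose sums lay between 17.9 and 24.6 CPM against 69.2, 228 and 52.0 CPM. Nerve sums lay between 57.5 and 59.0 CPM against 90.9, 204 and 109 CPM, so adipose and nerve were both highest in chlordecone 2. Leukocyte sums lay between 6.08 and 7.45 CPM against 9.23, 10.8 and 24.7 CPM. The part of these tissues in the F1 uroplakin values was not tested.

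In F3, where Upk1a passed the test, the proximal duct and urethral sums overlapped, at 25.9 to 50.2 CPM in controls and 37.0 to 62.1 CPM in chlordecone libraries. Vas deferens and epididymis sums lay between 2.30 and 5.23 CPM and between 2.60 and 4.22 CPM, over the 5 of 8 genes measured. Basal epithelium was the one list of these whose F3 sums did not overlap in the direction of Upk1a, at 169 to 190 CPM in controls and 203 to 278 CPM in chlordecone libraries. All 6 basal genes had a higher fitted level, 4 had an unadjusted p under 0.05 in edgeR (4.97% of all genes as higher), 0 passed its threshold and DESeq2 passed 1, Col17a1 (adjusted p = 0.0339; 0.575% of all genes as higher). The part of basal cells in the Upk1a and Upk1b values was not tested.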

How the data were processed

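Poly-A RNA from male mouse prostate was sequenced in 11 libraries. The authors deposited raw counts of reads per gene in 1 table for each generation, with their own log2 fold changes and p-values, the F1 ones written with decimal commas, per the file headers. The submitters' processing notes list HTSeq 0.6.1 and DESeq2 1.6.3, TopHat2 2.0.14 with Bowtie2 2.1.0, and the build mm10. Which annotation release and strand setting were used is not given in the sources used here. Columns marked C and K were taken as control and chlordecone (kepone), with the number of the title.

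Counts were filtered with edgeR's filterByExpr (minimum count 10, minimum total 15), scaled by TMM over the genes kept and tested with edgeR 4.0.16 in R 4.3.3 (glmQLFit, glmQLFTest) within each generation, and in 1 fit of both for the difference of changes. Benjamini-Hochberg adjustment ran over all genes tested, with a threshold of 0.05. Likeness used log2 of CPM plus a pseudocount of 0.5. On simulated data with a fixed dispersion of 0.05 and 200 genes changed by a log2 fold of 2, the F1 design recovered 94.5% (17804 genes) and the F3 design 98% (16766 genes). This does not give the power for the uroplakins in F1, whose SEs reached 1.69. A level of 3 counts was worth between 0.119 and 0.164 CPM in F1 and between 0.0249 and 0.0424 CPM in F3. Alternatives were DESeq2 1.42.0, other scalings and filters, a replicate block, 1 fit of both generations and leaving out each library. Intervals cover counting error only.

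The uroplakins and the gene lists were chosen with earlier results of these data known. Named genes are the uroplakins, the 8 nearest in likeness, the genes of each list past the threshold or else the 3 with the highest mean CPM, the leading marker genes, and the nearest tested neighbours of a uroplakin past the threshold. Other names are marked in the text. Positions came from GENCODE M21, which matched 19082 of 19091 F1 gene identifiers and 25835 of 26023 F3 identifiers.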

Additional observations from a re-analysis of the deposited data

How the results depend on the processing

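In F1 the count of uroplakins past the threshold was 0 in edgeR, where 5 genes passed in all. It was 3 in DESeq2's Wald test (692 genes in all) and 3 in the fit of both generations (930 genes in all). With the replicate block it was 1 (Upk3b, log2 fold change 3.97). F1 control 3 was not analysed, so the block of number 3 held chlordecone 3 alone. The blocked F1 fold changes therefore rest on libraries 1 and 2. Over fits that left out 1 chlordecone library the count ranged from 0 to 4. The 4 came without chlordecone 2, where 2604 genes passed in all. In F3 the count was 1 in edgeR (10 genes in all), 2 in DESeq2 (228 genes in all) and 0 in the fit of both generations (2 genes in all). It was 0 to 1 when 1 library was left out, with 0 without control 3. For the difference between generations the count, 0 in edgeR, was 2 in DESeq2 and 0 to 2 when 1 library was left out. Leaving out 1 library turned the sign of the F1 change of Upk1b (-0.48 to 0.067), of the F3 change of Upk3b (-1.04 to 0.052) and of the difference between generations for Upk1a (-1.29 to 0.11), all uncalled, and the replicate block gave 0.053 for the last. The causes were not tested. The F3 log2 fold change of Upk1a stayed between 2.28 and 2.60 and past the threshold in 12 of 14 alternatives. Without F1 chlordecone 1 or 3, Upk3b did not pass the filter and has no value. Same-numbered control and chlordecone libraries deviated together with correlations of 0.0569 and 0.0638 in F1 and 0.195, -0.0525 and -0.0502 in F3. Pairs of unlike number in F3 had correlations from -0.291 to 0.310. On these F3 values the numbers were not taken to pair samples. The F1 values cannot decide this, because 2 controls centred on their own mean mirror each other. With the replicate block 322 genes passed in F1, against 5 without it, and 8 in F3, against 10. Low counts limit Upk3a in F3 (3 to 10 reads in each library) and Upk3b in F1 controls (4 and 2 reads).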
